A study of Mus musculus with 10 samples.

Results

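Genes of DNA replication and S phase, 30 in number, were followed in immortalized mouse macrophages: 14 that license and activate replication origins, 9 that work at the replication fork or in chromatin assembly behind it, 5 that supply nucleotides and the 2 E-type cyclins. The list was put together by gene function, with earlier results of these data known; each gene was read by the probe set that carries its symbol alone and has the highest mean over the 10 arrays. All 30 of 30 listed genes were measured, among 19938 genes tested. The arrays were 10 Affymetrix arrays of biotin-labelled cDNA from total RNA. They covered wild-type cells (3 arrays unstimulated, 3 arrays with beads) and cells labelled TLR9KO, without Toll-like receptor 9, a sensor of DNA in endosomes (2 arrays unstimulated, 2 arrays with beads). The titles and source names give B6 for the wild-type bead arrays only. The beads were β-1,3 glucan beads, particles of the fungal cell wall sugar, given at 20 beads per cell for 4 h. All cells were immortalized, in a way that the sources used here do not describe, and the labels name 1 line of each genotype, so genotype and any other difference between the lines cannot be told apart.

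Replication starts from origins that are licensed before S phase: the origin recognition complex binds DNA, and Cdc6 and Cdt1 load the ring-shaped MCM2-7 helicase onto it. Kinases, Cdc45 and the GINS complex then turn the loaded ring into a moving helicase, and polymerases, the sliding clamp Pcna and nucleotide-making enzymes follow. Most of these genes are transcribed by E2F factors as a cell passes from G1 into S phase, with cyclin E and its kinase driving that step, and their mRNA is therefore common in dividing cultures and scarce in resting macrophages.

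The promoters of the 4 helicase subunits that passed in both comparisons of the lines (Mcm2, Mcm5, Mcm6 and Mcm7) are shown to let the letters be read beside the values. The windows are from RefSeq on GRCm38.p6, span 250 bases before and 50 bases after the annotated start and are written 5′ to 3′ along the gene. Capitals mark matches to any of 4 E2F-type octamers (TTTCCCGC, TTTGGCGC, TTTCGCGC and TTTGCCGC, searched on both strands, with overlapping matches kept).
Mcm2 (chr6:88898731-88899030, minus strand): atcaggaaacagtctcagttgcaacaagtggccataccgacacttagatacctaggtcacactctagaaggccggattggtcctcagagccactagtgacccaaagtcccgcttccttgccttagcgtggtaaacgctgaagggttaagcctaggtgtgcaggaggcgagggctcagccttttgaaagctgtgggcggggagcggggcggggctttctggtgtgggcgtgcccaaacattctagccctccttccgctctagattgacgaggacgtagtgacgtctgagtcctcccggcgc
Mcm5 (chr8:75109259-75109558, plus strand): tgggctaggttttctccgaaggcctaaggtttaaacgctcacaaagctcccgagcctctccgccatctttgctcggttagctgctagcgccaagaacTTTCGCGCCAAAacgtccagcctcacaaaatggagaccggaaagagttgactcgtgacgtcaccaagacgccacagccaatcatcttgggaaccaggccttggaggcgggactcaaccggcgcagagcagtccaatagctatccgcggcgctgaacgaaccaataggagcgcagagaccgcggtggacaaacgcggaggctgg
Mcm6 (chr1:128359656-128359955, minus strand): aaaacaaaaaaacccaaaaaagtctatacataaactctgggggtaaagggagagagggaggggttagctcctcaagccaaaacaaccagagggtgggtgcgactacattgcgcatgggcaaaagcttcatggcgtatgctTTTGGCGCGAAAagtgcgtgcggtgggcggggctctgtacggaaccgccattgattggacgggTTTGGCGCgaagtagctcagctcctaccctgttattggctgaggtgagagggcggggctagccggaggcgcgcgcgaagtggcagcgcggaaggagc
Mcm7 (chr5:138171834-138172133, minus strand): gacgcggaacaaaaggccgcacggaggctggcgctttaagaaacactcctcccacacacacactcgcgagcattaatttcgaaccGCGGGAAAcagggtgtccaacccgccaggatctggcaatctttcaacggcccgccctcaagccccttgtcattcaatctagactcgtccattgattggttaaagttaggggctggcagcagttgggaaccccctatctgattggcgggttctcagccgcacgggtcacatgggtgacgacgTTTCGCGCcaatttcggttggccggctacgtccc
With -1 as the base before the start, matches began at -153 and -149 in Mcm5, at -110, -106 and -47 in Mcm6, and at -165 and 17 in Mcm7. The first pairs in Mcm5 and Mcm6 overlap. The window of Mcm2 held none of these letters. RefSeq gives Mcm7 a second start, whose window (chr5:138171217-138171516, minus strand) held no octamer and is not printed. RefSeq windows were matched for 26 of the 30 genes (30 windows), without Mcm4, Gins1, Gins2 and Ccne2. An octamer was present in 9 of the 30 windows (30%), against 744 of all 32851 windows of the same length (2.26%). The CCAAT box, searched as CCAAT on both strands, was present in 17 of the 30 windows (56.7%) and in 37.4% of all windows. The median GC content of the windows was 57.5%, against 52.7% in all windows. A match is a description of the letters and not a site of binding.

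Values are deposited log2 signals, so a difference of 1 is a doubling, and a signal of 1 probe set was not set against that of another. Wild-type bead array 3 stood apart from all others: its interquartile range over all probe sets was 2.73 against 2.97 to 3.30, and its mean correlation with the other wild-type bead arrays was 0.973. It gave the lowest of the 6 wild-type values in 21 of the 30 genes. The calls of the 30 genes and of the other lists in the comparisons of the lines are therefore also given without it. So are the medians with beads of the 30 genes, the further pathway lists and the mitosis genes. Of the 30 genes, those whose call changed are named. Tlr9 itself read 6.91 to 7.44 in the 6 wild-type arrays and 7.31 to 7.62 in the 4 TLR9KO arrays and passed in neither comparison of the lines (0.37 ± 0.15, adjusted p = 0.244 unstimulated, and 0.10 ± 0.15, adjusted p = 1.00 with beads; limma). Whether its probes fall inside or outside the deletion is not known here, which leaves the genotype unchecked, and TLR9KO is used below as the name on the label. The 12 macrophage markers had mean signals of 9.41 to 10.41 over the 10 arrays. Among them Csf1r, the receptor for macrophage colony-stimulating factor, read 11.20 to 12.09. The markers of fibroblasts, lymphocytes, granulocytes and dendritic cells passed in no comparison (0 of 8, 7, 7 and 6), with or without wild-type bead array 3. In the comparisons of the lines, 8.25% of all genes passed in either direction without beads and 7.22% with beads. Without array 3, 11.3% passed as lower and 7.08% as higher without beads, and 13.7% and 7.19% with beads. Lists this short can hold 0 calls at such shares, so the counts say little about these markers. The mean signals of these marker lists per array were at most 6.07, 5.10, 5.49 and 5.70, all in wild-type bead array 3. In the other arrays they were at most 5.80, 4.96, 5.22 and 5.44. These signals come from different probe sets and were not set against each other, so they do not test the cell type on the label.

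Without beads, 12 of the 30 replication genes passed as lower in the TLR9KO arrays than in the wild-type arrays and 0 as higher (limma, Benjamini-Hochberg adjusted p under 0.05 over all 19938 genes), where 4.46% of all genes passed as lower and 3.79% as higher. All 30 differences were negative, from -1.30 for Mcm2 to -0.21 for Gins2, with a median of -0.61 against 0.02 over all genes tested. Both TLR9KO arrays lay below all 3 wild-type arrays in 28 genes, all but Cdt1 and Gins2, as in 21.1% of all genes. The RNA came from whole cultures, so fewer cells in S phase and less RNA per cell cannot be told apart. Separate cultures are not stated for the arrays of any group, so each p-value speaks only of array-to-array spread, which may be technical.

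**Figure D1:**
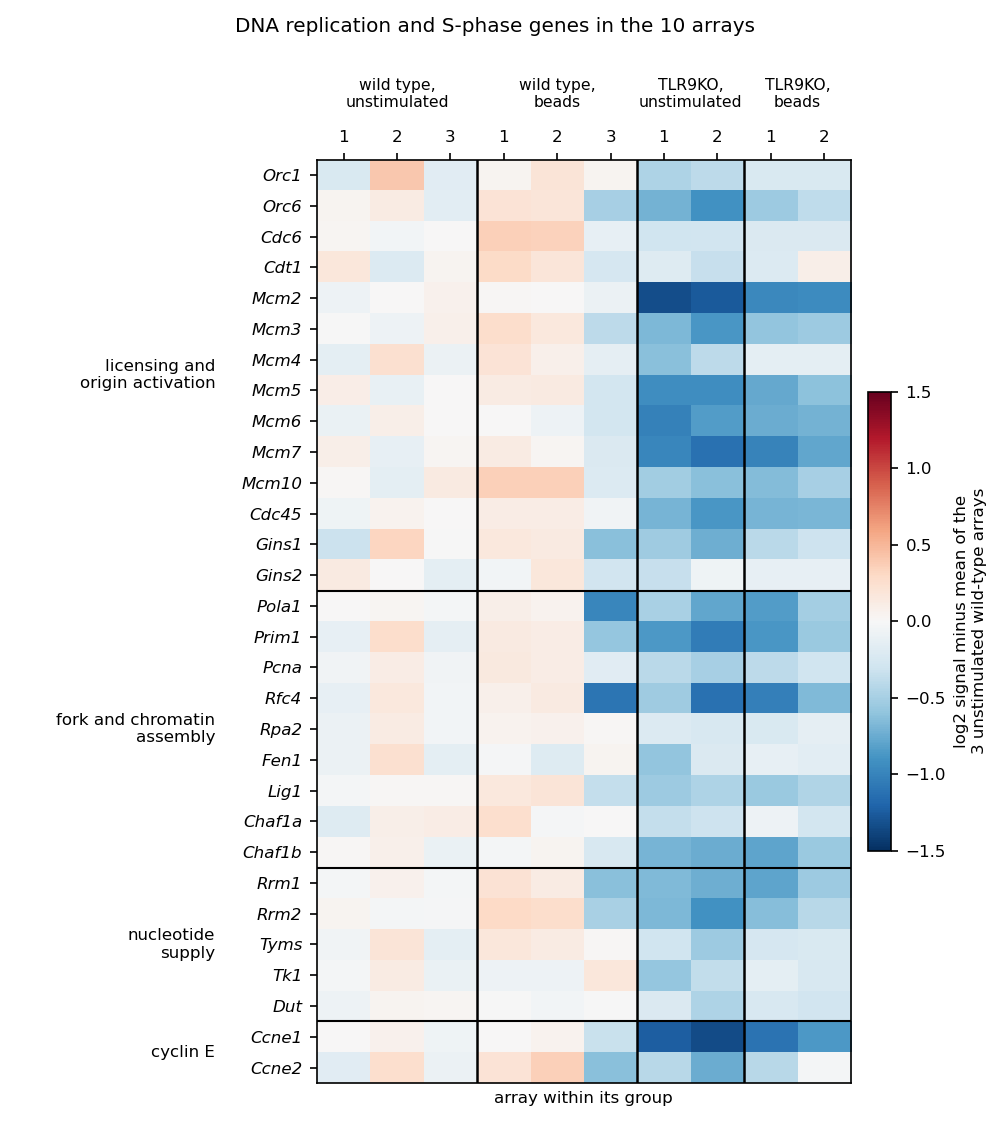
Log2 signal of each of the 30 genes in each of the 10 arrays, as the difference from the mean of the 3 unstimulated wild-type arrays (blue lower, red higher), with genes in rows by role and arrays in columns by group. The 4 TLR9KO arrays are blue in nearly every row, most deeply for Mcm2 and Ccne1, and wild-type bead array 3 is blue for Rfc4 and Pola1.

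The licensing genes held 7 of the 12 calls. They were 7 of 14 licensing genes, and the median difference of the 14 was -0.70. Mcm2, a subunit of the helicase ring, read 10.43, 10.52 and 10.58 in unstimulated wild type, against 9.17 and 9.25 in unstimulated TLR9KO. The groups lay over 1 log2 unit apart, and the difference was -1.30 ± 0.09 (SE), or 2.46-fold (adjusted p = 2.60e-05, limma). Among all 19938 genes this was the difference of rank 102 from the lowest.

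The other ring subunits followed the same order. Mcm7 read 10.15, 9.93 and 10.08 in wild type and 9.07 and 8.93 in TLR9KO. Mcm6 read 10.66, 10.84 and 10.77 against 9.75 and 9.92. Mcm5 read 10.01, 9.80 and 9.92 against 8.98 and 8.98. In each of these 3 subunits the higher TLR9KO array was below the lowest wild-type array by more than the range within either group. Their differences were -1.05 ± 0.13 for Mcm7, -0.93 ± 0.11 for Mcm6 and -0.93 ± 0.14 for Mcm5 (adjusted p = 9.58e-04, 9.03e-04 and 0.00280, limma). Mcm3 read 9.30, 9.23 and 9.39 against 8.64 and 8.43, a difference of -0.77 ± 0.18 (adjusted p = 0.0273). Mcm4, the remaining subunit, was 8.92, 9.31 and 8.98 against 8.44 and 8.68 and did not pass (-0.51 ± 0.15, adjusted p = 0.0729), although its groups did not overlap either.

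Around the ring, Cdc45, which joins it to make the active helicase, read 8.53, 8.64 and 8.60 in wild type and 7.89 and 7.71 in TLR9KO. The difference was -0.79 ± 0.10 (adjusted p = 0.00105, limma), with no overlap. Orc6, the smallest subunit of the origin recognition complex, read 8.76, 8.85 and 8.57 against 8.01 and 7.81 (-0.81 ± 0.20, adjusted p = 0.0399). The largest subunit, Orc1, did not pass (-0.43 ± 0.17, adjusted p = 0.216). Mcm10, which helps to activate the helicase, read 8.90, 8.73 and 9.01 against 8.36 and 8.25 and did not pass without beads (-0.57 ± 0.18, adjusted p = 0.0882). The loading factors had small differences: Cdc6 was at -0.29 ± 0.14 and Cdt1 at -0.27 ± 0.18, and neither passed. The GINS subunits Gins1 (-0.63 ± 0.25) and Gins2 (-0.21 ± 0.15) did not pass either.

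At the fork and in chromatin assembly, 3 of 9 genes passed as lower, with a median difference of -0.50. Prim1, the catalytic subunit of primase, read 8.15, 8.54 and 8.15 in wild type and 7.42 and 7.23 in TLR9KO, a difference of -0.95 ± 0.22 (adjusted p = 0.0301, limma). Chaf1b, a subunit of the histone chaperone CAF-1, read 9.05, 9.11 and 8.94 against 8.34 and 8.29 (-0.72 ± 0.12, adjusted p = 0.00476). Neither gene overlapped between the lines. Pcna, the sliding clamp, read 11.95, 12.12 and 11.95 against 11.60 and 11.50 (-0.46 ± 0.12, adjusted p = 0.0483). A second probe set that carries the symbol Pcna gave nearly the same values, and since near-identical copies of this gene exist in the genome, which copy either probe set reads is uncertain.

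Rfc4, a subunit of the clamp loader, had a large but variable difference. It read 8.74, 9.01 and 8.82 in wild type and 8.33 and 7.74 in TLR9KO. The 2 TLR9KO arrays were farther apart than the 3 wild-type arrays, and the difference of -0.82 ± 0.34 did not pass (adjusted p = 0.241, limma). Pola1, the catalytic subunit of polymerase alpha, was at -0.63 ± 0.29, and Lig1, which joins Okazaki fragments, at -0.50 ± 0.15. Fen1, the nuclease that trims those fragments, was at -0.40 ± 0.15. Chaf1a, the largest subunit of CAF-1, was at -0.34 ± 0.13 and Rpa2, a subunit of the protein that coats single-stranded DNA, at -0.22 ± 0.09. None of these passed.

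Of the 5 genes of nucleotide supply, Tk1 alone passed, and the median difference was -0.47. Tk1, the thymidine kinase of dividing cells, read 9.13, 9.27 and 9.05 in wild type and 8.57 and 8.78 in TLR9KO (-0.47 ± 0.12, adjusted p = 0.0427, limma). Rrm1 and Rrm2, the large and small subunits of ribonucleotide reductase, were at -0.69 ± 0.22 and -0.79 ± 0.21 (adjusted p = 0.101 and 0.0575). Tyms, which makes thymidylate, was at -0.42 ± 0.12, and Dut, which removes dUTP, at -0.34 ± 0.10 (adjusted p = 0.0751 and 0.0708). In all 5 genes the arrays of the lines did not overlap.

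Of the E-type cyclins, which activate Cdk2 at entry into S phase, Ccne1 passed and Ccne2 did not. Ccne1 read 9.82, 9.88 and 9.74 in wild type and 8.58 and 8.47 in TLR9KO. The difference of -1.29 ± 0.13, or 2.44-fold, was of rank 108 from the lowest among all genes (adjusted p = 3.58e-04, limma). Ccne2 was at -0.58 ± 0.28 (adjusted p = 0.330).

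**Figure D2:**
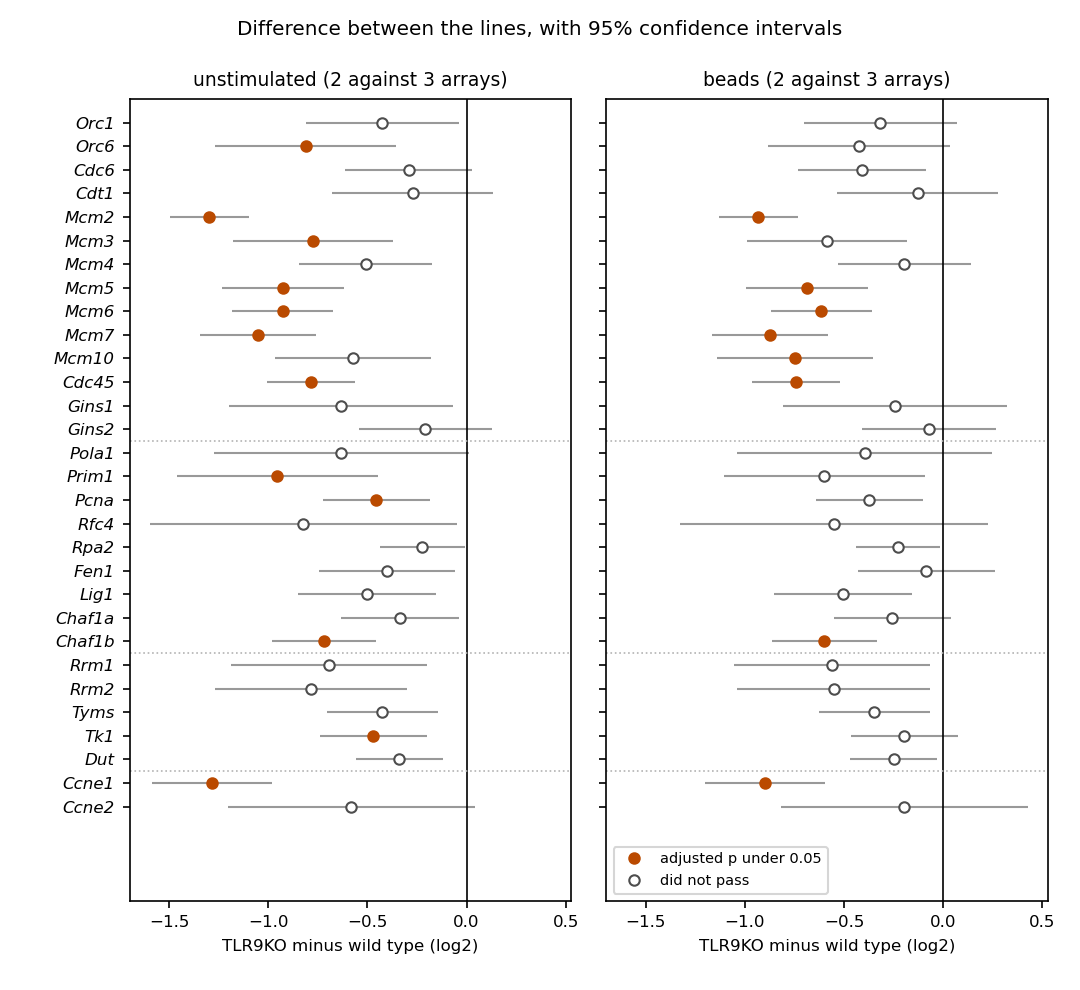
TLR9KO minus wild type on the log2 scale for each of the 30 genes, unstimulated (left) and with beads (right), with 95% confidence intervals of the limma fit; filled points passed. All points lie left of 0 in both panels, with 12 filled points on the left and 8 on the right.

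The calls without beads that held under each of 19 alternative analyses were those of Mcm2, Mcm5, Mcm6, Mcm7, Cdc45 and Ccne1. Those of Chaf1b, Mcm3, Prim1, Orc6, Pcna and Tk1 held under 17, 13, 13, 11, 7 and 6 of the 19. Leaving out unstimulated wild-type array 1, 2 or 3 gave 7 calls each, leaving out unstimulated TLR9KO array 1 or 2 gave 7 and 6, and centring each array on its median gave 6. Without wild-type bead array 3, which enters only the estimate of the spread here, 24 of the 30 genes passed, as 11.3% of all genes then did as lower. The 12 genes added were Cdc6, Mcm4, Mcm10, Gins1, Pola1, Rfc4, Lig1, Rrm1, Rrm2, Tyms, Dut and Ccne2.

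With beads, 8 of the 30 replication genes passed as lower in the TLR9KO arrays and 0 as higher, where 3.40% of all genes passed as lower and 3.82% as higher. All 30 differences were negative, with a median of -0.42 against -0.01 over all genes tested. The arrays did not overlap in 19 genes, as in 12.3% of all genes. In 7 genes (Mcm2, Mcm5, Mcm6, Mcm7, Cdc45, Chaf1b and Ccne1) both comparisons passed. Across both treatments, all 4 TLR9KO arrays lay below all 6 wild-type arrays in 16 of the 30 genes, as in 7.88% of all genes.

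Of the 8 calls with beads, 6 were licensing genes. Mcm2 read 10.53, 10.51 and 10.42 in wild type with beads, against 9.54 and 9.57 in TLR9KO with beads, a difference of -0.93 ± 0.09, or 1.91-fold (adjusted p = 2.23e-04, limma). Mcm7 read 10.18, 10.08 and 9.84 against 9.05 and 9.27, a difference of -0.87 ± 0.13 (adjusted p = 0.00305). Cdc45 read 8.70, 8.70 and 8.53 against 7.89 and 7.91, a difference of -0.74 ± 0.10 (adjusted p = 0.00155). In these 3 genes every TLR9KO array was well below every wild-type array, array 3 included.

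Mcm5 read 10.03, 10.04 and 9.64 in wild type and 9.14 and 9.29 in TLR9KO with beads, and Mcm6 10.77, 10.69 and 10.48 against 10.02 and 10.05. Their differences were -0.69 ± 0.14 and -0.61 ± 0.11 (adjusted p = 0.0143 and 0.00965, limma). Mcm10 read 9.24, 9.24 and 8.67 against 8.23 and 8.38 and passed with beads only (-0.75 ± 0.18, adjusted p = 0.0323); the test of the difference between its 2 line differences did not pass (adjusted p = 1.00). Wild-type bead array 3 was the lowest wild-type array in all 3, and none of them overlapped between the lines.

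Mcm3 read 9.58, 9.47 and 8.92 in wild type and 8.71 and 8.76 in TLR9KO with beads and did not pass (-0.59 ± 0.18, adjusted p = 0.0979, limma). Without wild-type bead array 3 its difference was -0.79 and passed. Orc6 read 8.93, 8.91 and 8.23 against 8.18 and 8.35, with wild-type bead array 3 inside the TLR9KO range (-0.43 ± 0.20, adjusted p = 0.370). Mcm4 read 9.28, 9.15 and 8.94 against 8.93 and 8.93 and did not pass (-0.20 ± 0.15).

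Outside licensing, Chaf1b and Ccne1 passed with beads. Ccne1 read 9.81, 9.87 and 9.48 in wild type and 8.70 and 8.95 in TLR9KO, a difference of -0.90 ± 0.13, or 1.86-fold (adjusted p = 0.00324, limma). Chaf1b read 9.01, 9.07 and 8.80 against 8.24 and 8.48 (-0.60 ± 0.12, adjusted p = 0.0130). Wild-type bead array 3 was again the lowest wild-type array in both, still above both TLR9KO arrays. Prim1 read 8.41, 8.39 and 7.70 against 7.41 and 7.72, and Rfc4 8.94, 8.99 and 7.76 against 7.83 and 8.20. In both genes array 3 alone brought the lines to overlap, and neither passed (-0.60 ± 0.22 and -0.55 ± 0.34). Pcna read 12.16, 12.12 and 11.83 against 11.62 and 11.71, and Tk1 9.08, 9.07 and 9.32 against 9.01 and 8.91, both without overlap and without passing (-0.37 ± 0.12 and -0.20 ± 0.12). No gene of nucleotide supply passed with beads, and the median of the 5 was -0.35.

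The remaining genes did not pass with beads. Their differences ran from -0.56 ± 0.22 for Rrm1 and -0.55 ± 0.21 for Rrm2 to -0.07 ± 0.15 for Gins2. Between these lay Lig1 (-0.51 ± 0.15), Cdc6 (-0.41 ± 0.14), Pola1 (-0.40 ± 0.29), Tyms (-0.35 ± 0.12), Orc1 (-0.32 ± 0.17), Chaf1a (-0.26 ± 0.13), Dut (-0.25 ± 0.10), Gins1 (-0.24 ± 0.25), Rpa2 (-0.23 ± 0.09), Ccne2 (-0.20 ± 0.28), Cdt1 (-0.13 ± 0.18) and Fen1 (-0.08 ± 0.15). For Gins2, Cdt1 and Fen1 the sign itself turned under 1 alternative each, so no direction is given for them with beads.

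The comparison with beads depended on single arrays. Without wild-type bead array 3, 19 of the 30 genes passed as lower (13.7% of all genes), the median was -0.67, and the arrays did not overlap in 29 genes (27.8% of all genes). The 8 calls were all among the 19. The 11 added were Rfc4 (-0.95 ± 0.18), Prim1 (-0.83 ± 0.15), Rrm1 (-0.83 ± 0.10), Rrm2 (-0.81 ± 0.11), Mcm3 (-0.79 ± 0.10), Pola1 (-0.75 ± 0.12), Lig1 (-0.68 ± 0.08), Orc6 (-0.66 ± 0.11), Cdc6 (-0.57 ± 0.08), Pcna (-0.48 ± 0.09) and Tyms (-0.39 ± 0.12), all without that array. The 19 were 9 of 14 licensing genes, 6 of 9 at the fork, 3 of 5 in nucleotide supply and 1 of 2 E cyclins. The difference was over 1.5 times larger without the array in 7 genes. Leaving out wild-type bead array 2 gave 5 calls, and leaving out TLR9KO bead array 1 or 2 gave 4 and 5. Of the 8 calls, that of Mcm2 held under each of the 19 alternatives, and those of Mcm7, Cdc45, Ccne1, Mcm6, Chaf1b, Mcm5 and Mcm10 held under 18, 18, 17, 15, 15, 14 and 9.

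**Figure D3:**
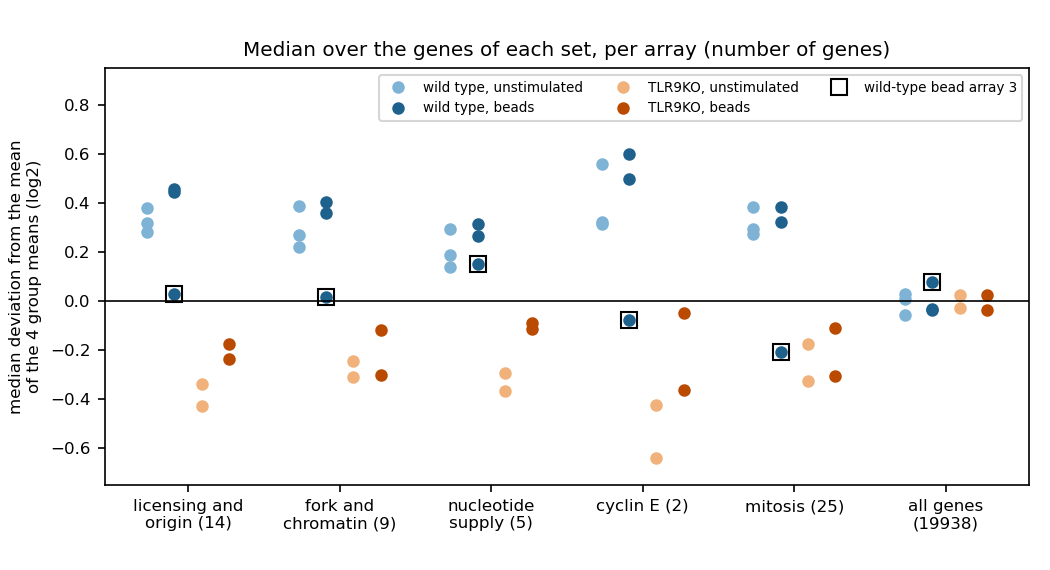
Median deviation, in log2 units, of the genes of each set from the mean of the 4 group means, with 1 point for each array and the number of genes in parentheses; wild-type bead array 3 is boxed. In the 4 replication sets the TLR9KO points lie below the other wild-type points; wild-type bead array 3 lies between the lines for licensing and fork genes, within the wild-type points for nucleotide supply and within the TLR9KO points for the E cyclins. Over all genes the arrays lie near 0.

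Beads changed no replication gene past the threshold in the wild-type line. Of the 30 genes, 0 passed, as did 0% of all genes (limma); at an unadjusted p under 0.05 the counts were 0 of 30 and 167 of 19938. The median difference, beads minus unstimulated, was -0.01, with 17 genes negative and 13 positive. Without wild-type bead array 3 it was 0.12, with 4 negative (Mcm6, Fen1, Tk1 and Dut) and 26 positive, and the sign turned in 15 genes, so no direction is given for this response. The bead arrays lay above all unstimulated arrays in 0 genes, against 2.29% of all genes. The single-gene 95% confidence intervals together spanned -0.98 to 0.53, and changes within the interval of a gene could not be detected here. Cdc6 had the highest difference (0.19 ± 0.13) and Rfc4 the lowest (-0.29 ± 0.31). The value of Rfc4 rested on wild-type bead array 3, without which it was 0.11. Mcm2 was at -0.02 ± 0.08. Without that array the count of calls was again 0, in the 30 genes and in all genes.

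No replication gene passed the test of the bead response in the TLR9KO line either. Of the 30 genes, 0 passed, as did 0% of all genes (limma); at an unadjusted p under 0.05 the counts were 2 of 30 (Mcm2 and Mcm4) and 359 of 19938. The median difference was 0.19 against 0.00 over all genes, and 26 of 30 differences were positive, against 10335 of 19938 genes. In wild type without bead array 3, 26 of 30 were positive too, against 9286 of 19938 genes. There all 12 macrophage markers were positive (median 0.24) and all 8 fibroblast markers negative, so that count was not particular to the replication genes. In TLR9KO 3 of 12 macrophage markers were positive. Both TLR9KO bead arrays lay above both unstimulated TLR9KO arrays in 18 genes (10 of 14 for licensing, 3 of 9 at the fork, 3 of 5 in nucleotide supply and both E cyclins), where 13.2% of all genes did so. Mcm2 read 9.17 and 9.25 without and 9.54 and 9.57 with beads (0.34 ± 0.10, unadjusted p = 0.00629, adjusted p = 1.00). Mcm4 read 8.44 and 8.68 without and 8.93 and 8.93 with beads (0.37 ± 0.16, unadjusted p = 0.0495, adjusted p = 1.00). Orc6 (0.35 ± 0.22), Ccne1 (0.30 ± 0.15) and Tk1 (0.28 ± 0.13) had separate arrays too and did not pass at either level. Without wild-type bead array 3, 0 of the 30 genes passed, while of all genes 2 passed as lower and 15 as higher.

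**Figure D4:**
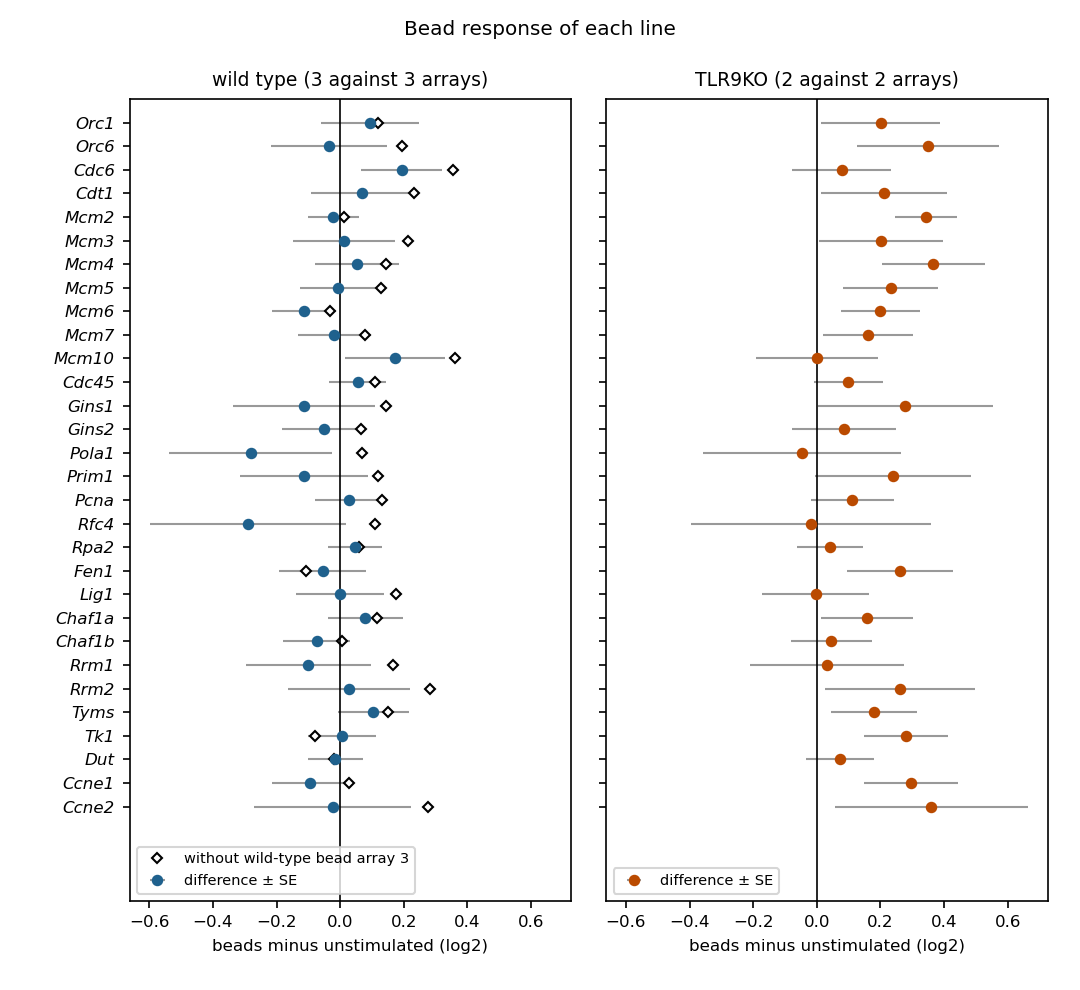
Beads minus unstimulated on the log2 scale for each of the 30 genes in wild type (left) and TLR9KO (right), with the SE of the limma fit; open diamonds give the wild-type value without bead array 3. No gene passed in either line; 26 of 30 points lie right of 0 in TLR9KO, and the diamonds lie right of the filled points for most genes.

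The bead responses of the lines were compared by the interaction term. Of the 30 genes, 0 passed, as did 0% of all genes (limma); at an unadjusted p under 0.05 the counts were 1 of 30 (Mcm2) and 172 of 19938. The TLR9KO response minus the wild-type response had a median of 0.18 over the 30 genes, against -0.01 over all genes. Over the 25 mitosis genes the median was 0.22, with 24 of 25 positive. For Mcm2 the difference of responses was 0.36 ± 0.13 and for Ccne1 0.39 ± 0.19. The same quantity, read the other way, makes the line difference smaller with beads than without in 26 of the 30 genes. Without wild-type bead array 3 the median was 0.04 and the count 18 of 30, with the sign turned in 8 genes. The medians were then 0.02 over all genes and -0.03 over the mitosis genes. Again 0 of the 30 genes passed, and 1 of all genes did.

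The genes and their partners were also grouped by the complex they form, a grouping made after the values were seen. Of 34 subunits, 10 passed as lower without beads and 7 with beads, where 4.46% and 3.40% of all genes did. The counts below are without beads, and none was made without wild-type bead array 3. Of the 6 subunits of MCM2-7, 5 passed as lower (-1.30 to -0.51 over the 6). Of replication factor C, the clamp loader, 2 of 5 subunits passed, and Rfc2, which is outside the 30 genes, had the lowest difference of all these subunits (-1.38 ± 0.20, or 2.61-fold). Rfc2 read 9.62, 9.60 and 9.60 in wild type and 8.35 and 8.10 in TLR9KO. Polymerase alpha-primase, CAF-1 and the origin recognition complex had 1 call each of 4, 3 and 6 subunits, where Orc2 (-0.90 ± 0.28, adjusted p = 0.0930) was not called. GINS, replication protein A and ribonucleotide reductase had 0 of 4, 3 and 3. Of ribonucleotide reductase, Rrm2b, the small subunit induced by p53, was at -0.06 ± 0.10. Whether complexes differ from each other was not tested.

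**Figure D5:**
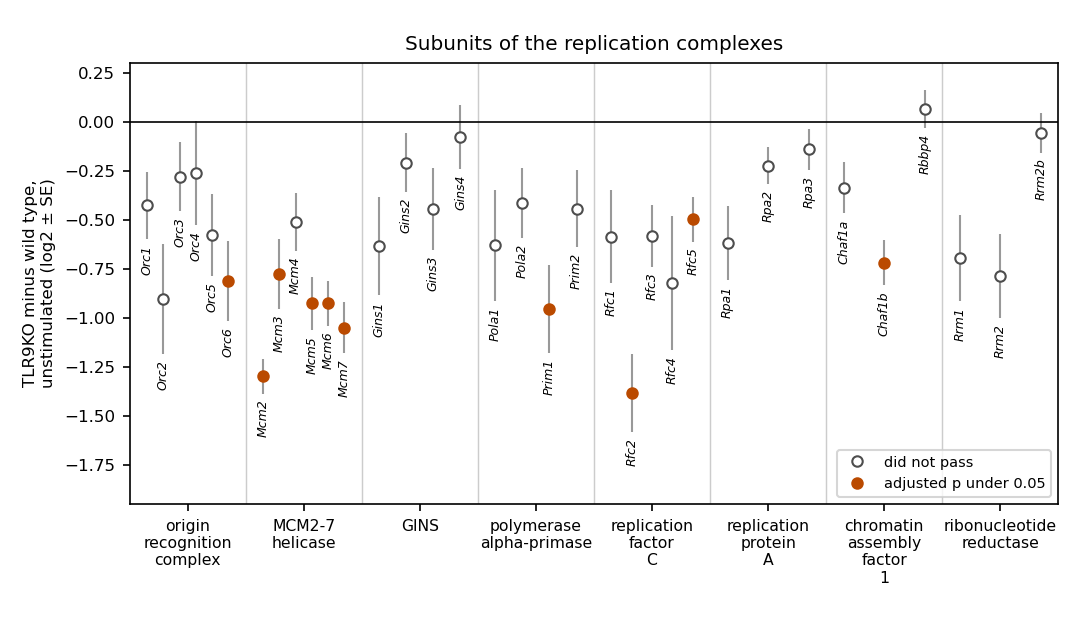
TLR9KO minus wild type without beads, in log2 units with the SE of the limma fit, for each measured subunit of 8 replication complexes; filled points passed. Most points lie below 0, MCM2-7 has 5 of 6 filled points, and Rfc2 is the lowest point.

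Other genes of the pathway, from lists drawn up with earlier results of these data known, were read in the same fit. Of 18 further licensing and origin genes, 2 passed as lower and 0 as higher without beads: Cdc7, the kinase that triggers the loaded helicase (-0.77 ± 0.17), and Ticrr, which recruits Cdc45 (-0.62 ± 0.16). With beads, 0 of 18 passed. Over all genes 4.46% passed as lower without beads and 3.40% with beads. Of 33 further fork and checkpoint genes, 4 passed as lower and 0 as higher in each comparison. Without beads these were Rfc2, the exonuclease Exo1 (-1.11 ± 0.19), Atrip, the partner of the checkpoint kinase Atr (-0.74 ± 0.18), and Rfc5 (-0.50 ± 0.11). With beads they were Rfc2 (-1.27 ± 0.20), Atrip (-0.89 ± 0.18), Exo1 (-0.81 ± 0.19) and Rfc3 (-0.67 ± 0.16). Of 10 further chromatin assembly genes, the histone chaperones Asf1b (-0.84 ± 0.20) and Rbbp7 (-0.41 ± 0.10) passed as lower without beads and 0 passed with beads. The medians were -0.48, -0.55 and -0.45 for these 3 lists without beads and -0.23, -0.37 and -0.34 with beads. The counts lower without wild-type bead array 3 were 11 of 18, 26 of 33 and 6 of 10 without beads (11.3% of all genes) and 11 of 18, 26 of 33 and 7 of 10 with beads (13.7% of all genes), the medians with beads being -0.40, -0.59 and -0.51.

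Of 16 nucleotide metabolism genes outside the 30, 4 passed as lower and 2 as higher without beads, where 4.46% of all genes passed as lower and 3.79% as higher. Their differences were negative in 14 of the 16, with a median of -0.55. Lower were Cad, which starts pyrimidine synthesis (-0.79 ± 0.13), Mthfd1 and Shmt1 of folate metabolism (-0.73 ± 0.15 and -0.63 ± 0.09) and Gart of purine synthesis (-0.60 ± 0.14). Higher were Samhd1, which breaks down deoxynucleotides (1.27 ± 0.14, or 2.42-fold), and the salvage kinase Dck (0.63 ± 0.16). Samhd1 read 9.31, 9.19 and 9.15 in wild type and 10.48 and 10.50 in TLR9KO. With beads, Shmt1 was lower (-0.46 ± 0.09) and Samhd1 higher (0.97 ± 0.14), and 14 others did not pass. These calls, 1 of 16 in each direction, are near the 3.40% and 3.82% of all genes. The median with beads was -0.39. Without wild-type bead array 3 the counts were 11 lower and 2 higher without beads, against 11.3% and 7.08% of all genes. With beads they were 9 lower and 2 higher, against 13.7% and 7.19% of all genes, with a median of -0.50.

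Among 31 regulators of S phase entry, 5 passed as lower and 1 as higher without beads. Over all genes 4.46% passed as lower and 3.79% as higher, and the share of higher calls among the 31 was near the latter. Of the 31 differences 21 were negative, with a median of -0.25. The lower ones were Fbxo5, an inhibitor of the anaphase-promoting complex (-0.85 ± 0.13), the cyclins Ccnd3 (-0.66 ± 0.13), Ccna2 (-0.57 ± 0.12) and Ccnd1 (-0.51 ± 0.10), and the kinase inhibitor Cdkn2d (-0.49 ± 0.11). The higher one was Ccnd2, a D-type cyclin of G1, at 7.92, 7.63 and 7.83 in wild type and 10.52 and 10.90 in TLR9KO (2.92 ± 0.13, or 7.56-fold). With beads, 5 passed as lower, namely E2f2 (-0.996 ± 0.243), Cdkn2d (-0.79 ± 0.11), Ccnd3 (-0.70 ± 0.13), Fbxo5 (-0.52 ± 0.13) and Ccnd1 (-0.40 ± 0.10). Ccnd2 (2.79 ± 0.13) and Myc (0.76 ± 0.14), a transcription factor that drives growth, passed as higher. Of all genes 3.40% passed as lower and 3.82% as higher with beads, and the median of the 31 was -0.09. The 3 D-type cyclins did not share a direction. Leaving out wild-type bead array 3 gave 13 lower and 1 higher without beads, against 11.3% and 7.08% of all genes. With beads it gave 13 lower and 3 higher, against 13.7% and 7.19% of all genes, with a median of -0.21. In the bead response of either line and in the interaction, 0 genes of these 5 lists passed.

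Of 25 mitosis genes, 7 passed as lower in TLR9KO and 0 as higher without beads, where 4.46% of all genes passed as lower, with a median of -0.56, among them Nuf2 (-1.03 ± 0.15), Bub1 (-1.02 ± 0.16) and Plk1 (-0.82 ± 0.13). With beads 3 passed as lower (3.40% of all genes), with a median of -0.40. When wild-type bead array 3 was left out, 21 of 25 passed as lower without beads and 20 of 25 with beads (median -0.52), against 11.3% and 13.7% of all genes. Macrophage markers differed between the lines as well: without beads 6 of 12 passed as higher in TLR9KO, Cd14 (2.46 ± 0.18) with the largest difference, and Mertk passed as lower (-1.50 ± 0.21), where 3.79% of all genes passed as higher. With beads 6 passed as higher and 1 as lower, where 3.82% of all genes passed as higher. Leaving out wild-type bead array 3 gave 8 higher and 1 lower without beads, where 7.08% of all genes passed as higher and 11.3% as lower. With beads it gave 6 higher and 2 lower, where 7.19% of all genes passed as higher and 13.7% as lower. The mean signal of the 12 markers was 9.72 to 9.77 in unstimulated wild type and 10.26 to 10.41 in unstimulated TLR9KO, and 9.41 to 10.02 against 10.17 to 10.35 with beads, where 9.41 is wild-type bead array 3 and the other wild-type bead arrays began at 9.97. Their part in the replication result was not tested.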

How the data were processed

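Total RNA of 10 samples was hybridised to Affymetrix arrays. The deposited values are log2 signals of probe sets, which the authors computed by RMA according to the submitters' processing notes; its version, annotation and filters were not given in the sources used here. RMA corrects background, brings arrays to a common distribution and summarises probes; whether all 10 arrays were treated together is unknown. Array medians ran from 5.75 to 6.10. The table held 28853 probe sets, of which 21789 carried 1 symbol, 1621 several and 5443 were not named; 21698 were matched to current symbols by Entrez ID, giving 19938 genes (999 with over 1 probe set). Samples were grouped by label. A model of 4 group means over all 10 arrays was fitted with limma 3.58.1 in R 4.3.3 (lmFit, eBayes; 6 residual and 3.23 prior degrees of freedom), with two-sided tests and Benjamini-Hochberg adjustment over all genes. Errors are SEs of that fit. The code was tested on simulated data. The number of arrays limits the precision.

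The members and lists were chosen with earlier results of these data known. All 30 genes are named, with every array's value for those called in a contrast or with the 8 largest line differences; of each pathway list, up to 5 genes with the largest difference among those called in a comparison of the lines (3 for mitosis). Gart, Ccnd1, Ccnd3 and Ccna2 fell outside that rule and were named, after their values were seen, because they belong to counts of 5 or fewer. Orc2 and Rrm2b, named among the complexes without being called, also fell outside it. The rule did not cover the cell type markers, of which Csf1r, Cd14 and Mertk were named. A few genes of the pathway and marker lists were not analysed here, among them Cdkn1a, which lay only on a probe set shared with another gene. Titles carry bracketed array numbers of undescribed meaning, lower in all TLR9KO than in all wild-type arrays. Within each line they are lower in bead than in unstimulated arrays. Any order these numbers mark thus cannot be told apart from the line or from the beads. The brackets also hold undescribed letters, A, K, P and R in TLR9KO and B to D and H to J in wild type. By letter the TLR9KO arrays stand on both sides of the wild-type arrays, and bead arrays again come first within each line. Alternatives were a trended and a robust eBayes, median centring, quantile normalisation, only the groups compared, array weights, a filter on dim genes, the mean of probe sets, the interquartile range as covariate, and leaving out each array.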

Additional observations from a re-analysis of the deposited data

How the results depend on the processing

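All 30 genes kept a negative sign in the comparison without beads under all 19 alternatives. Against 12 calls there, median centring gave 6, only the groups compared 22, array weights 26, the interquartile range covariate 24, and leaving out 1 array 6 to 24. Against 8 calls with beads, these gave 2, 2, 23, 20 and 4 to 19, and quantile normalisation gave 15. Trended or robust eBayes, the dim filter and the mean of probe sets moved neither count by over 1.5 times. The wild-type bead response had 15 calls of 30, all higher, with array weights. There 9174 of all 19938 genes passed, counted in both directions, so no share of higher calls alone is set beside the 15. That weight estimate stopped before reaching its tolerance, with weights from 0.07 (wild-type bead array 3) to 12.1. Leaving out 1 array gave 0 calls among the 30 genes in the bead responses and the interaction. Among all genes it gave 0 in the wild-type response, up to 17 in the TLR9KO response and up to 1 in the interaction. Over all genes, 1645 calls without beads became 681 to 3668 and 1439 with beads 597 to 4171 when 1 array was left out; median centring gave 756 and 704, quantile normalisation 2483 and 2263, only the groups compared 3262 and 480, array weights 4451 and 6083, and the covariate 4289 and 4207. Signs turned with beads for Fen1 (0.041 with array weights) and, among values with 1 array left out, for Gins2 (-0.19 to 0.037, positive without wild-type bead array 2) and Cdt1 (-0.29 to 0.021, positive without TLR9KO bead array 1). In the wild-type bead response 15 of the 30 signs turned without bead array 3, and in the interaction 8. Of the genes singled out there, they turned for Rfc4 (0.17 with array weights, -0.50 to 0.11 with 1 array left out, positive without bead array 3) and Mcm2 (-0.061 to 0.012, positive without unstimulated array 3 and without bead array 3). The cause was not tested. Only the groups compared could not be applied to the interaction. No paired analysis was possible because no replicate number is shared by groups in the labels.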

Other observations

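Wild-type bead array 3 read below both other wild-type bead arrays in 26 of the 30 genes. Its difference from their mean was widest for Rfc4 (-1.20), Pola1 (-1.05), Ccne2 (-0.90), Rrm1 (-0.80), Gins1 (-0.77) and Rrm2 (-0.76). It was small for Mcm2 (-0.10), Tyms (-0.13) and Cdc45 (-0.17), and array 3 was higher for Tk1 (0.25), Fen1 (0.15) and Dut (0.02). The median over the 30 genes was -0.35. Over the 9619 genes whose signal lay in the range of the 30 it was -0.31, and over all genes 0.08. No replicate stands behind these differences.

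A second probe set carries the symbol of Tk1. It read 8.39, 8.65 and 8.41 in unstimulated wild type and 7.98 and 8.11 in unstimulated TLR9KO, again without overlap. With beads it read 8.65, 8.58 and 8.54 against 8.32 and 8.25, so that here wild-type bead array 3 was the lowest of its group, where the probe set used for Tk1 had it as the highest. The second probe set of Pcna read 11.95, 12.12 and 11.95 against 11.59 and 11.50 without beads, and 12.16, 12.12 and 11.82 against 11.61 and 11.70 with beads.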
